A study of Danio rerio with 8 samples.

Results

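The splicing factors, heterogeneous nuclear ribonucleoproteins (hnRNP proteins) and 3′ end processing factors on an Affymetrix zebrafish array were followed in heart ventricles of Danio rerio. Members were taken by gene symbol alone, as the probe sets with 1 annotated symbol that starts with srsf, sf3a, sf3b, snrp, prpf, hnrnp, lsm and a digit, u2af, rbm and a digit, cpsf or cstf. The rule took 137 probe sets for 107 genes, of 15502 probe sets tested and 8793 genes with a single symbol. There were 4 arrays of resected ventricles and 4 of control ventricles, each from a pool of 50 ventricles collected 2 weeks after surgery, and the series describes the pools as biological replicates. What was done to the control animals, the strain and the age of the fish are not given in the sources used here, and the labels name no transgene or agent. Expression is given as deposited RMA values (log2), so that 1 unit is a doubling. Changes are log2 differences, resected over control, each followed by its SE (standard error) from limma, with 4 arrays in each group. A gene with several probe sets is represented by the one with the highest mean over all arrays, and a probe set or gene was called when its limma p-value was at most 0.05 after Benjamini-Hochberg adjustment across the 15502 probe sets.

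Introns are removed from pre-mRNA by the spliceosome, which is built on each intron from small nuclear ribonucleoproteins (snRNPs). U1 snRNP binds the 5′ splice site, U2AF and the SF3A and SF3B complexes of U2 snRNP define the branch point and the 3′ splice site, and the PRPF proteins include parts of the U4/U6.U5 tri-snRNP and factors that activate the assembled machine. SR proteins and hnRNP proteins bind exons and introns and shift the choice between alternative sites, which in heart muscle sets the isoforms of many sarcomere proteins, and the CPSF and CSTF complexes cut the transcript and direct addition of the poly(A) tail. An array of this kind measures the level of the factors' own transcripts and not splicing itself.

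Few transcripts of this machinery were called in resected ventricles. The median size of change was 0.13 log2 units for member probe sets, as it was for all probe sets tested. Of the 137 member probe sets 3 rose and 3 fell, or 4.38%, where 6.85% of all probe sets tested were called (4.28% higher and 2.57% lower). By gene, 2 of 107 rose, sf3b3 and rbm4.1, and 2 fell, prpf31 and sf3a2, or 3.74%, where 8.05% of all genes were called. The other 2 called probe sets, for lsm12b (lower) and hnrnpa0b (higher), are not the ones that represent their genes. The median change over member probe sets was -0.03, beside -0.05 over all probe sets tested, and the changes lay between -0.59 and 1.01. Without control replicate 2, an array described below, 13 member probe sets were called, 9 higher and 4 lower (9.49%, beside 10.4% of all probe sets, 6.13% higher and 4.24% lower); by gene 8 rose and 3 fell (10.3%, beside 12.3% of all genes, 7.37% higher and 4.95% lower). The 13 called without control replicate 2 were the most for any array left out, where each of the others gave 2 to 8. That array was set apart by this count and by the members' own values, so calls without it are no separate support. Without resected replicate 2 or control replicate 4, 0 member probe sets were called higher. The shares over all probe sets are not given here for fits without the other arrays. Those counts therefore cannot be read as particular to the members.

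**Figure D1:**
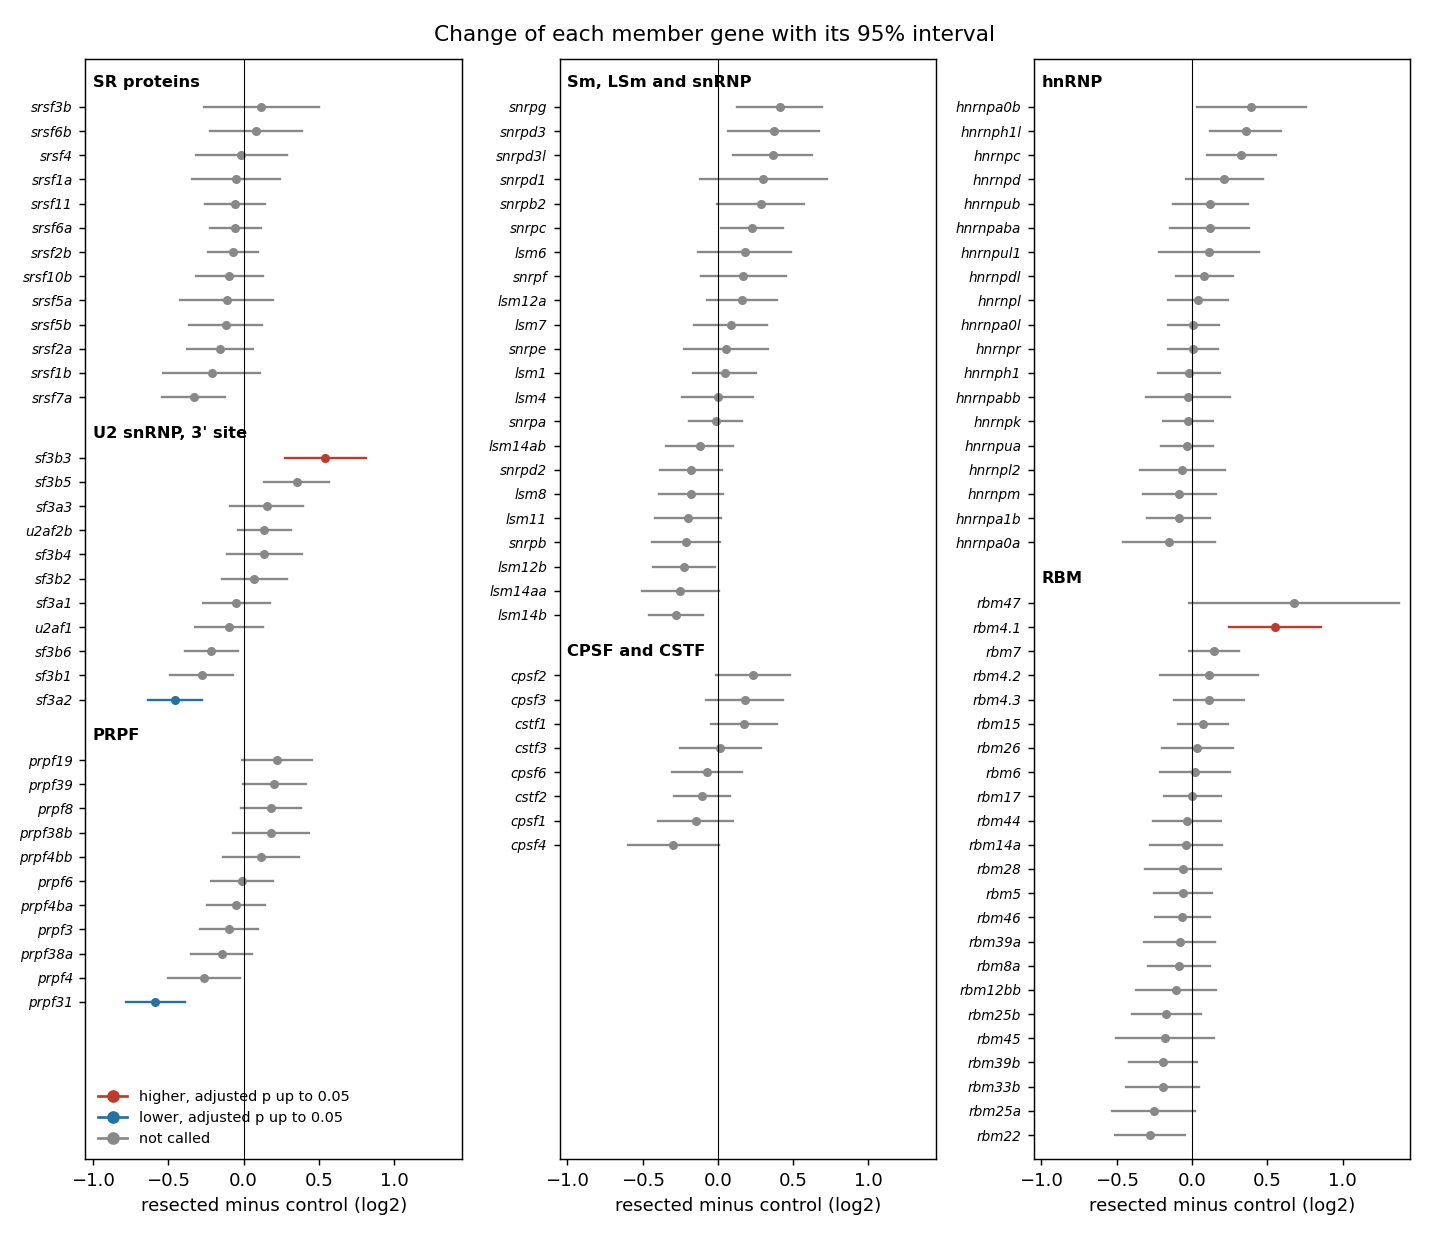
Change of each of the 107 member genes (x axis, resected minus control, log2) with its 95% confidence interval from the limma fit, grouped by family and ordered by size; red and blue mark genes called higher and lower. The 4 called genes are sf3b3, rbm4.1, prpf31 and sf3a2, and most intervals cover 0.

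The intervals bound how far the uncalled genes could have moved. For 85 of the 107 genes (79.4%) the 95% interval of the change lay within 0.5 log2 units on either side of 0, and for 106 it lay within 1 unit, against 70.7% and 93.8% of all genes. The exception at 1 unit was rbm47. Changes of 0.5 or more in either direction were estimated for 4 member genes (3.74%), beside 8.9% of all genes. The 4 resected values lay outside the range of the 4 control values for 12 member genes, 5 higher and 7 lower, or 11.2%. This was so for 15.7% of all genes (681 higher and 697 lower of 8793). By probe set it held for 19 members, 7 higher and 12 lower (13.9%), beside 14.3% of all probe sets tested, 6.95% higher and 7.35% lower. Before adjustment, 19 member genes had a p under 0.05, of which 10 were higher and 9 lower, beside 25.4% of all genes.

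**Figure D2:**
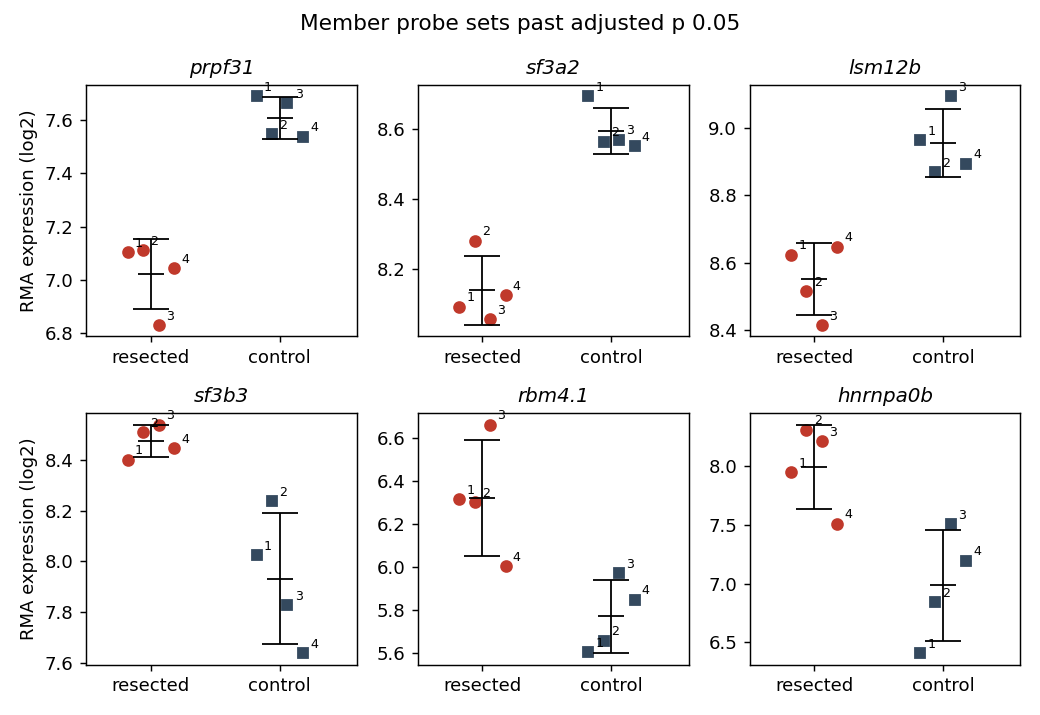
RMA expression (y axis, log2, a separate range for each panel) of the 6 called member probe sets in the 4 resected arrays (red circles) and the 4 control arrays (dark squares), with replicate numbers as digits, and the mean and SD of each group as bars. The groups do not overlap in any panel, and for hnrnpa0b the lowest resected array (7.51) barely clears the highest control array (7.51).

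The largest decrease and the smallest p among the members were those of prpf31, which encodes a protein that binds U4 snRNA and holds the tri-snRNP together; in people, loss of 1 copy causes retinitis pigmentosa. Its log2 expression was 7.10, 7.11, 6.83 and 7.04 in resected replicates 1 to 4, against 7.69, 7.55, 7.66 and 7.54 in control replicates 1 to 4. Every resected pool was below every control pool. The mean was 7.02 ± 0.13 in resected and 7.61 ± 0.08 in control ventricles (SD, n = 4 each), so prpf31 was 1.5-fold lower (-0.59 ± 0.09, 95% interval -0.78 to -0.39, adjusted p = 0.00373, limma). No single array decided the call (without each of the 8, adjusted p = 0.00513 to 0.0119, limma) and in all 7 other settings tried.

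None of the other 10 PRPF genes was called. The next smallest p was that of prpf4, a partner of the U4/U6 snRNP, at -0.26 ± 0.11 (95% interval -0.50 to -0.02, adjusted p = 0.178, limma). Its estimate had the same sign as that of prpf31. The catalytic-centre scaffold prpf8 was at 0.18 ± 0.09 by its brightest probe set, and its 3 probe sets ranged from -0.13 to 0.18. A bridging protein of the tri-snRNP, prpf6, was at -0.01, and prpf3, which binds prpf4, at -0.10 ± 0.09. The ubiquitin ligase of spliceosome activation, prpf19, was at 0.22 ± 0.11 with an interval of -0.01 to 0.45. Over the 11 PRPF genes the median change was -0.01, with 5 estimates above 0 and 6 below.

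Within U2 snRNP and 3′ splice site recognition, 1 gene rose and 1 fell of 11. The SF3A subunit sf3a2, which helps tether U2 snRNP to the branch point, was at 8.09, 8.28, 8.06 and 8.13 in the resected pools, against 8.69, 8.56, 8.57 and 8.55 in the control pools. It was 1.37-fold lower in resected ventricles (-0.46 ± 0.08, 95% interval -0.64 to -0.28, adjusted p = 0.00846, limma), a call that also held with each array left out (adjusted p = 0.0121 to 0.0348, limma). A second probe set for sf3a2, of a type that can bind several transcripts, went the same way without being called (-0.25 ± 0.08, adjusted p = 0.10, limma). Both other SF3A subunits were near 0, sf3a1 at -0.05 and sf3a3 at 0.15.

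The SF3B subunit sf3b3, a large scaffold protein of the complex, moved the other way. It was at 8.40, 8.51, 8.54 and 8.44 in the resected pools, against 8.02, 8.24, 7.83 and 7.64 in the control pools, with control replicate 4 the lowest array of all. It rose 1.46-fold (0.54 ± 0.12, 95% interval 0.27 to 0.81, adjusted p = 0.0255, limma). The call ended without resected replicate 2 or 3 or without control replicate 3 or 4 (adjusted p = 0.0565 to 0.0781, limma), while the change stayed between 0.44 and 0.64.

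Other SF3B subunits lay on both sides of 0 without being called. The small subunit sf3b5 was at 8.39, 8.35, 8.33 and 8.31 in resected pools, against 7.88, 8.25, 7.85 and 7.99 in control pools, a change of 0.35 ± 0.10 (adjusted p = 0.0583, limma). The groups did not overlap, and without control replicate 2, the highest control array, sf3b5 was called (0.44 ± 0.08, adjusted p = 0.0103, limma). The branch point clamp sf3b1, a gene often mutated in human myelodysplastic syndromes, was lower in every resected pool than in every control pool by both of its probe sets, at -0.28 ± 0.09 and -0.25 ± 0.10 (adjusted p = 0.108 and 0.164, limma). The branch point binding subunit sf3b6 likewise did not overlap between the groups, at -0.21 ± 0.08 (adjusted p = 0.136, limma). In the whole family of 11 genes the groups did not overlap for 5 (45.5%), 2 higher and 3 lower, beside 15.7% of all genes. These are sf3a2 and the 4 SF3B genes given here. The share is the highest of several small families and was not tested. In the others it lay between 0.0% (CPSF and CSTF) and 13.6% (Sm, LSm and snRNP). The subunits sf3b2 (0.07 ± 0.10) and sf3b4 (0.14 ± 0.11, with a second probe set at -0.02) had intervals that covered 0. So did the U2AF genes u2af1 (-0.10 ± 0.10) and u2af2b (0.14 ± 0.08).

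**Figure D3:**
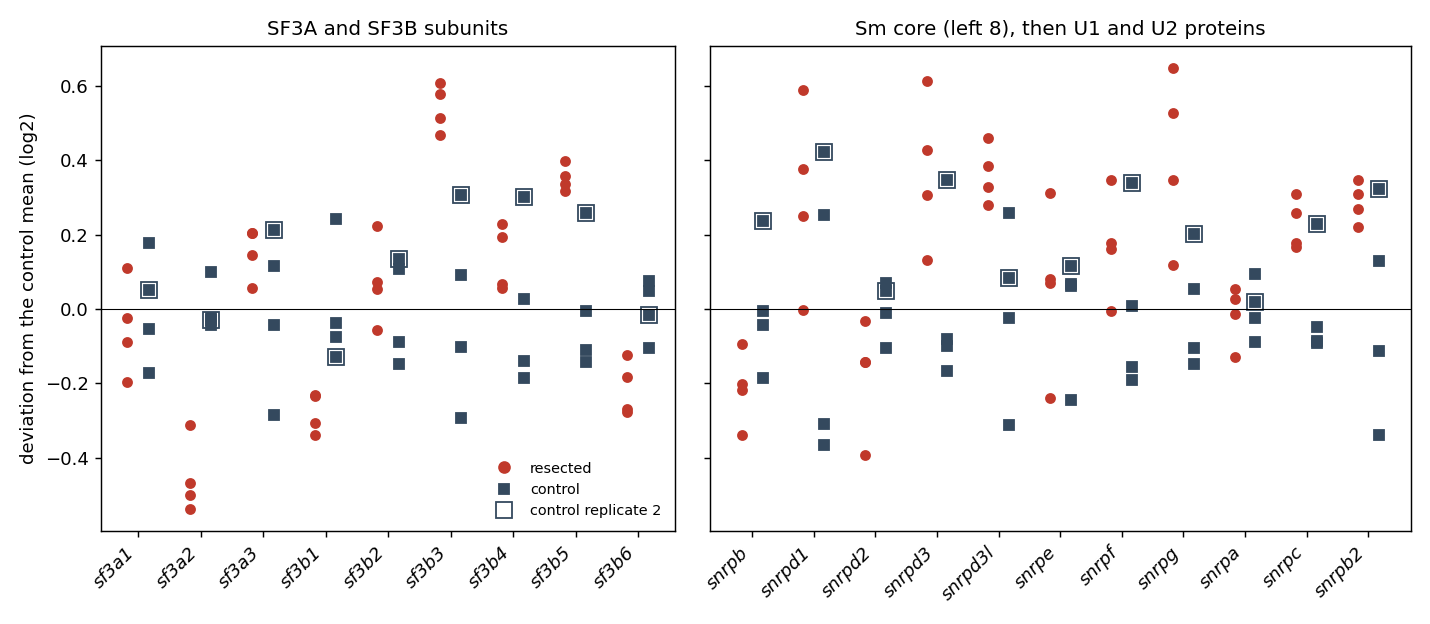
Deviation of each array from the gene's control mean (y axis, log2) for the SF3A and SF3B subunits (left panel) and for the Sm core and the U1 and U2 proteins (right panel), with resected arrays as red circles, control arrays as dark squares and an open square around control replicate 2. For sf3a2, sf3b1, sf3b3, sf3b5, sf3b6 and snrpd3l the groups do not overlap, and control replicate 2 is the highest control array for 13 of the 20 genes shown, snrpb among them, which has a negative change (41 of all 107 member genes).

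The Sm proteins form the ring that encloses the snRNA in most spliceosomal snRNPs. None of the 8 Sm core genes was called; 6 had estimates above 0 and 2 below, with a median of 0.24. The largest was that of snrpg (Sm G), at 6.86, 7.16, 6.63 and 7.04 in resected pools, against 6.37, 6.72, 6.57 and 6.41 in control pools, where resected replicate 3 lay below control replicate 2. Its change was 0.41 ± 0.13 (95% interval 0.13 to 0.69, adjusted p = 0.0797, limma), and it passed the threshold without either of those arrays. Of the others, snrpd3 was at 0.37 ± 0.14, its paralog snrpd3l at 0.36 ± 0.12, snrpd1 at 0.30 ± 0.19, snrpf at 0.17 ± 0.13 and snrpe at 0.05 ± 0.13. The 2 below 0 were snrpb, at -0.21 ± 0.10, and snrpd2, at -0.18 ± 0.09, whose level was low on this array (3.31 in resected and 3.49 in control ventricles, where the array medians lay between 5.78 and 5.82).

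Control replicate 2 was near the resected arrays for several of these genes. Averaged over the 8 Sm core genes, the deviation from the control mean was 0.19, 0.24, 0.01 and 0.19 in resected replicates 1 to 4, against 0.03, 0.22, -0.10 and -0.15 in control replicates 1 to 4. Without control replicate 2, snrpg (0.48 ± 0.13, adjusted p = 0.0457, limma), snrpd3 (0.49 ± 0.12, adjusted p = 0.0283) and the U1 protein snrpc (0.30 ± 0.08, adjusted p = 0.0461) were called higher. Over all 8 arrays snrpc was at 0.23 ± 0.09 (adjusted p = 0.172, limma). Control replicate 2 was picked by the values of these same genes, so calls without it are no separate support. Its array weight over all probe sets was 0.83, beside 0.62, 0.73 and 0.93 for control replicates 1, 3 and 4. The same array differed from the other controls in several marker lists. Over 9 macrophage markers its deviation was 0.61, where the other controls lay between -0.26 and -0.11 and the resected arrays between 0.46 and 1.17. Of these markers 4 rose and 0 fell, and their summed log2 level was 73.3 to 79.6 in resected and 66.8 to 74.6 in control arrays. Over 12 cell cycle genes, 7 of which rose and 0 of which fell, the deviation of control replicate 2 was 0.17, where the other controls lay between -0.13 and 0.04 and the resected arrays between 0.52 and 0.91; the summed log2 level was 80.0 to 84.7 in resected and 72.3 to 75.9 in control arrays. Over 5 neutrophil markers, 2 of which rose and 0 of which fell, it was at 0.48, where the other controls lay between -0.67 and 0.10 and the resected arrays between 0.26 and 0.70. Over 4 endothelial and endocardial markers, 1 of which rose and 0 of which fell, it was at -0.17, where the other controls lay between 0.03 and 0.08 and the resected arrays between -0.15 and 0.03. In other lists control replicate 2 was far from the resected arrays. Over fast skeletal muscle, epicardial and fibroblast, and erythrocyte markers it was at -0.07, -0.14 and 0.08. The lowest resected arrays there were at 1.15, 1.88 and 1.12. For heart muscle and lymphocyte markers it was the lowest control, at -0.06 in both. The part of other cells or of dividing cells in the values of the Sm genes was not tested. In pooled whole ventricles a change in the number of cells of a type and a change in RNA per cell cannot be told apart.

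The U1 protein snrpa was at -0.02 ± 0.08 and the U2 protein snrpb2 at 0.29 ± 0.13 (adjusted p = 0.221, limma). The LSm proteins of the U6 ring and of cytoplasmic mRNA decay, lsm1, lsm4, lsm6, lsm7 and lsm8, had intervals that all lay within 0.5 of 0, with a median change of 0.05. The other 6 LSm genes had a median of -0.21, with 5 of 6 estimates below 0. Among them, the translation repressors lsm14aa (-0.25 ± 0.12), lsm14ab (-0.12 ± 0.10) and lsm14b (-0.28 ± 0.08) belong to cytoplasmic mRNP granules, and lsm11 (-0.20 ± 0.10) to the U7 snRNP of histone mRNA processing. For lsm14b the values were 5.44, 5.25, 5.43 and 5.38 in resected pools, against 5.57, 5.64, 5.66 and 5.75 in control pools, without overlap (adjusted p = 0.0657, limma).

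The dimmer of the lsm12b probe sets fell; lsm12b encodes an RNA-binding LSm domain protein. It was at 8.62, 8.52, 8.42 and 8.65 in resected pools, against 8.96, 8.87, 9.09 and 8.89 in control pools, a change of -0.40 ± 0.09 (adjusted p = 0.0218, limma). The brighter probe set, which represents the gene, did not overlap between the groups either but was not called (-0.22 ± 0.09, adjusted p = 0.179, limma). The call ended without resected replicate 2 or 3 or control replicate 3 (adjusted p = 0.0532 to 0.0712, limma) and with the replicate number as a block (0.0591).

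None of the 13 SR protein genes was called. These proteins bind exonic enhancers through RNA recognition motifs and recruit the machinery through domains rich in arginine and serine. Of the 13 estimates 11 were below 0, with a median of -0.07; over all genes 58.8% of the estimates were below 0 and the median was -0.04. The smallest p belonged to srsf7a, at 9.66, 9.85, 9.59 and 9.70 in resected pools, against 10.22, 9.99, 10.03 and 9.90 in control pools. Each resected pool was below each control pool, by -0.33 ± 0.09 between the means (95% interval -0.54 to -0.12, adjusted p = 0.0634, limma), and srsf7a passed the threshold only with further quantile normalization (adjusted p = 0.0408). The next was srsf2a, at -0.16 ± 0.10 (adjusted p = 0.365, limma). Of the srsf1 copies, whose mammalian ortholog is needed for postnatal splicing in heart muscle, srsf1a was at -0.05 ± 0.13 and srsf1b at -0.21 ± 0.15. The other probe set of srsf1b was at -0.01, while srsf10b was at -0.10 ± 0.10 and srsf4 at -0.01. The intervals of srsf1b and srsf7a reached beyond 0.5, so these arrays allow a decrease of that size.

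The hnRNP proteins package nascent transcripts and often repress nearby splice sites. By representative probe set none of the 19 hnRNP genes was called, and the median change was 0.01. The A/B group gene hnrnpa0b had 4 probe sets, all with estimates above 0. The 1 that rose was at 7.95, 8.31, 8.22 and 7.51 in resected pools, against 6.41, 6.84, 7.51 and 7.20 in control pools. Values varied widely in both groups, and resected replicate 4 and control replicate 3 were level to 2 decimals. The change was 1.01 ± 0.24, or 2.01-fold (95% interval 0.49 to 1.53, adjusted p = 0.0304, limma), and the call ended without resected replicate 1, 2 or 3 or control replicate 1 or 4 (adjusted p = 0.0546 to 0.0989, limma). The other 3 probe sets were at 0.39 ± 0.16, 0.34 ± 0.24 and 0.30 ± 0.14, and the intervals of all 4 overlapped. The brightest of them was at 10.82, 11.10, 10.76 and 10.63 in resected pools, against 10.46, 10.90, 10.13 and 10.25 in control pools, and was called without control replicate 2 (0.55 ± 0.13, adjusted p = 0.0256, limma).

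The hnRNP genes next in order were hnrnph1l, which belongs to the G-run binding H/F group, and hnrnpc, a core protein that binds uridine tracts. The first was at 7.99, 8.17, 8.21 and 8.01 in resected pools, against 7.83, 7.90, 7.74 and 7.48 in control pools (0.35 ± 0.11, adjusted p = 0.0729, limma), with no overlap. The second was at 7.92, 8.06, 8.01 and 7.69 in resected pools, against 7.52, 7.72, 7.68 and 7.45 in control pools (0.33 ± 0.10, adjusted p = 0.0878, limma), with 1 resected array inside the control range, replicate 4, without which hnrnpc was called (adjusted p = 0.0455, limma). The transcripts of several abundant hnRNP proteins had changes measured tightly around 0. The poly(C)-binding hnrnpk was at -0.03 with an interval of -0.19 to 0.14, and hnrnpa0l at 0.01 (-0.16 to 0.18). The gene hnrnpr was at 0.00 (-0.16 to 0.17) and hnrnpl, which binds CA repeats, at 0.04 (-0.16 to 0.24). For hnrnpua, a nuclear scaffold protein, the interval was -0.21 to 0.14.

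Of 23 RBM genes, 1 rose. The rbm4 genes encode RNA-binding proteins with a zinc knuckle whose mammalian counterparts promote muscle cell splicing patterns. The brighter rbm4.1 probe set was at 6.32, 6.30, 6.66 and 6.0 in resected pools, against 5.60, 5.66, 5.97 and 5.85 in control pools, with a narrow gap between resected replicate 4 and control replicate 3. It rose 1.46-fold (0.55 ± 0.14, 95% interval 0.24 to 0.86, adjusted p = 0.0407, limma). The second probe set was low on the array, at 3.31 to 3.84 in resected and 3.21 to 3.39 in control pools (0.33 ± 0.11, adjusted p = 0.118, limma). The call for rbm4.1 ended without any 1 array but resected replicate 4 and control replicate 3 (adjusted p = 0.0623 to 0.101, limma). Neither of its relatives rbm4.2 (0.11 ± 0.15, with a second probe set at -0.09) and rbm4.3 (0.11 ± 0.10) was called. Whether the copies differ was not tested, and array probes can bind close copies.

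The largest estimate among the RBM genes was not called over all arrays. The editing cofactor rbm47 was at 5.62, 6.67, 6.28 and 5.99 in resected pools, against 5.11, 6.46, 5.27 and 5.02 in control pools. Control replicate 2 was inside the resected range, and the other 3 controls were below every resected pool. The change was 0.68 ± 0.31 (95% interval -0.02 to 1.37, adjusted p = 0.23, limma) over all arrays and 1.01 ± 0.21 (adjusted p = 0.0149, limma) without that array. With the replicate number as a block it was also called (0.68 ± 0.15, adjusted p = 0.0354, limma), although the numbers were not shown to pair the arrays. The U6-binding active site protein rbm22 was at -0.28 ± 0.10 (adjusted p = 0.144, limma), and the exon junction complex subunit rbm8a at -0.09 ± 0.09. The U2AF-related splicing regulators rbm39a (-0.08 ± 0.11) and rbm17 (0.00 ± 0.09), the apoptosis-linked regulator rbm5 (-0.06 ± 0.09) and the m6A writer subunit rbm15 (0.07 ± 0.08) had intervals within 0.5 of 0. Without control replicate 2, rbm25a, a U1-associated factor, was called lower (-0.38 ± 0.09, adjusted p = 0.0229, limma; -0.26 ± 0.12 over all arrays).

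Cleavage and polyadenylation factors also stayed uncalled, with 4 of 8 estimates above 0 and a median of -0.03. The zinc finger subunit cpsf4, which contacts the AAUAAA signal in mammals, was at 4.69, 4.75, 4.77 and 4.78 in resected pools, against 4.91, 5.02, 5.48 and 4.77 in control pools (-0.29 ± 0.14, adjusted p = 0.224, limma). Control replicate 3 was the highest and control replicate 4 lay inside the resected range. Without control replicate 3 the change was -0.15, and over all left-out arrays it lay between -0.39 and -0.15. The subunit cpsf2 was at 0.23 ± 0.11 by its brighter probe set (adjusted p = 0.244, limma) and at -0.03 by the other. The endonuclease cpsf3 was at 0.18 ± 0.12, and the GU-binding subunit cstf2 at -0.10 ± 0.08.

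Probe sets for the same gene were compared by their changes, each fitted separately over the same pools. Of the 107 genes 22 had several probe sets. All probe sets of a gene had estimates of the same sign for 13 of these genes and of different sign for 9, and for all 22 the 95% intervals overlapped. Overlap of separate intervals is no test of whether probe sets differ, and their difference within each array was not tested. The sign was the same throughout for 5 genes described above as called or as separated by both probe sets, hnrnpa0b, rbm4.1, lsm12b, sf3a2 and sf3b1. These genes were picked by the same values, and sf3b1 by the agreement itself, so their shared sign is no separate support.

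**Figure D4:**
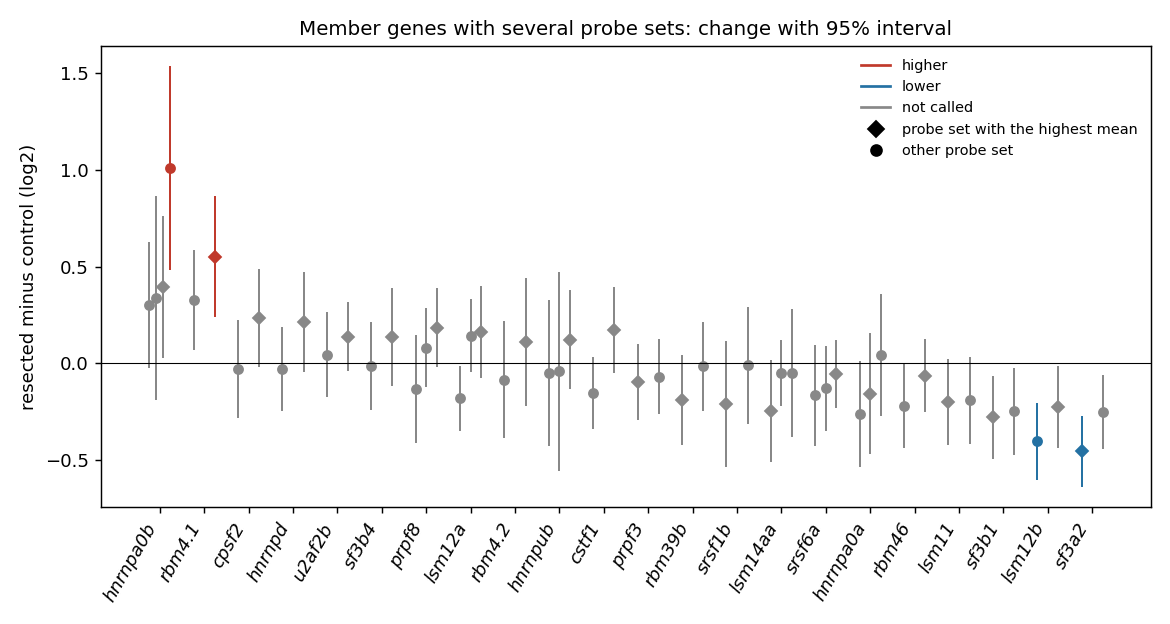
Change of every probe set (y axis, resected minus control, log2) with its 95% interval for the 22 member genes that have several, ordered by their mean change; diamonds mark the probe set that represents the gene, and colours mark calls. The 4 probe sets of hnrnpa0b range from 0.30 to 1.01, and those of most other genes lie on or near 0.

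Zebrafish carry many of these genes as duplicate copies, and 13 pairs whose symbols end in a and b were compared within each array, first minus second. The pairs were taken by symbol alone, so a pair need not be copies of the same gene, prpf38a and prpf38b among them. For lsm12a over lsm12b the log2 ratio was -1.42 to -1.32 in resected pools, against -1.88 to -1.55 in control pools, a shift of 0.39 (exact two-sided permutation p = 0.0286, adjusted over the 13 pairs p = 0.186). For prpf38a over prpf38b it was -2.26 to -1.68 in resected pools, against -1.63 to -1.51 in control pools, a shift of -0.33 (exact permutation p = 0.0286, adjusted p = 0.186). These are the smallest p that 4 against 4 arrays allow, and no pair passed after adjustment. The lsm12 ratio rests on the brightest of 3 lsm12a probe sets (0.16 ± 0.11). The other probe sets separated the groups in opposite directions. One, at 0.14 ± 0.08, lay above every control pool in every resected pool, by a narrow gap (5.09 against 5.07). The third, at -0.18 ± 0.07, lay below every control pool in every resected pool, near the -0.22 of lsm12b. The shift for hnrnpa0a over hnrnpa0b was -0.55 ± 0.19 (SE, exact permutation p = 0.0571, adjusted p = 0.248), with overlapping groups. It also rests on 1 of 3 hnrnpa0a probe sets, whose changes ranged from -0.26 to 0.04. Shifts of the SR protein pairs srsf1, srsf2, srsf5 and srsf6 lay between -0.14 and 0.16.

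Genes of RNA processing outside the symbol rule were read from a list of 158 symbols, 120 of which were measured. Of these, 5 rose and 1 fell, or 5.0%, where 8.05% of all genes were called (5.05% higher and 3.0% lower), and the median change was -0.06. The groups did not overlap for 6 higher and 15 lower genes (17.5%), beside 15.7% of all genes (681 higher and 697 lower of 8793). Estimates were below 0 for 70 of the 120 (58.3%), beside 58.8% of all genes. By relatives, 1 of 4 CELF genes, 1 of 4 PTBP genes and 2 of 3 RBFOX genes were called, while nova2, esrp1 and esrp2 were not. The CUG-binding celf2, whose family shapes heart muscle splicing in mammals, was at 6.79, 7.06, 6.97 and 7.02 in resected pools, against 6.13, 6.42, 6.28 and 6.02 in control pools, and rose 1.68-fold (0.75 ± 0.10, adjusted p = 0.00231, limma). The polypyrimidine tract-binding repressor ptbp1b, which in mammals holds back muscle and neuronal exons, rose 1.51-fold (0.59 ± 0.11, adjusted p = 0.0125, limma) from a low level, 4.83 in resected and 4.24 in control ventricles.

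The RBFOX proteins, which bind GCAUG elements and control muscle splicing in zebrafish, went both ways. The gene rbfox1 was at 6.53, 6.65, 6.70 and 6.51 in resected pools, against 6.25, 6.12, 6.14 and 6.19 in control pools, and rose by 0.42 ± 0.08 (adjusted p = 0.0111, limma). Its relative rbfox1l was at 8.62, 8.59, 8.33 and 8.76 in resected pools, against 8.80, 9.18, 9.47 and 9.19 in control pools, and fell by 0.58 on the log2 scale (SE 0.14, adjusted p = 0.0353, limma). Of the remaining changed genes, the exon junction-associated pnn rose by 0.35 ± 0.08 (adjusted p = 0.0261, limma) and the spliceosomal isomerase ppil1 by 0.36 ± 0.10 (adjusted p = 0.0481). The calls of celf2, rbfox1 and ptbp1b did not depend on any single array. Those of rbfox1l, pnn and ppil1 ended under 5, 4 and 7 of the 8 left-out arrays (adjusted p up to 0.101, 0.0779 and 0.128, limma) and with the replicate block (0.0647, 0.0655 and 0.064).

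Fast skeletal muscle markers rose for 5 of 6 genes (0 lower), with a summed log2 level of 50.2 to 54.4 in resected and 42.9 to 44.2 in control arrays, and epicardial and fibroblast markers for 4 of 5 (0 lower), at 49.5 to 50.1 in resected and 39.1 to 41.2 in control arrays. All 7 erythrocyte markers rose (64.1 to 70.9 in resected, 55.3 to 56.8 in control arrays). None of the 4 lymphocyte markers was called. The part of these cells in the changes of celf2, ptbp1b and the RBFOX genes was not tested. The 5 measured heart muscle markers were all bright and none was called, with a summed level of 67.6 to 68.3 in resected and 68.1 to 68.8 in control arrays. The 3′ minus 5′ difference of the GAPDH control probe sets, a sign of RNA quality, was 0.80 to 1.05 in resected and 0.77 to 1.07 in control arrays (exact two-sided permutation p = 0.771), while that of the acta1 actin control probe sets was -1.74 to -1.46 in resected and -2.30 to -1.98 in control arrays (p = 0.0286, the smallest this exact test can give). For acta1 the 3′ signal lay below the 5′ signal in every array, and the source of its difference between the groups was not tested.

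In the general level of these genes the control arrays spanned a wider range than the resected arrays. Averaged over the 107 member genes, the deviation from the control mean was 0.00, 0.05, -0.02 and 0.01 in resected replicates 1 to 4, against 0.06, 0.07, -0.02 and -0.12 in control replicates 1 to 4. The spread was not particular to the members. For the 120 other RNA processing genes the average was -0.04, -0.01, -0.06 and 0.02 in resected replicates 1 to 4. In control replicates 1 to 4 it was 0.07, 0.02, 0.01 and -0.10, with control replicate 4 again the lowest. Over all probe sets tested the same averages lay between -0.02 and 0.02 in the resected and between -0.01 and 0.02 in the control arrays. Quantile normalization, which RMA in general includes, sets averages over all probe sets nearly equal. That narrow range is therefore no measure of how far an average over 107 genes can vary. Control replicate 4 was the lowest array of its group for every family but CPSF and CSTF. It was at -0.15 for SR proteins, -0.14 for Sm, LSm and snRNP proteins, -0.13 for U2 snRNP proteins and -0.13 for hnRNP proteins. For PRPF proteins it was at -0.12 and for RBM proteins at -0.09. Resected arrays lay inside the control range for every family but SR proteins, where resected replicate 3 was lower (-0.16), and hnRNP proteins, where resected replicate 2 was higher (0.13). The median SD of a member gene was 0.10 among resected and 0.17 among control arrays, beside 0.12 and 0.16 over all genes.

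**Figure D5:**
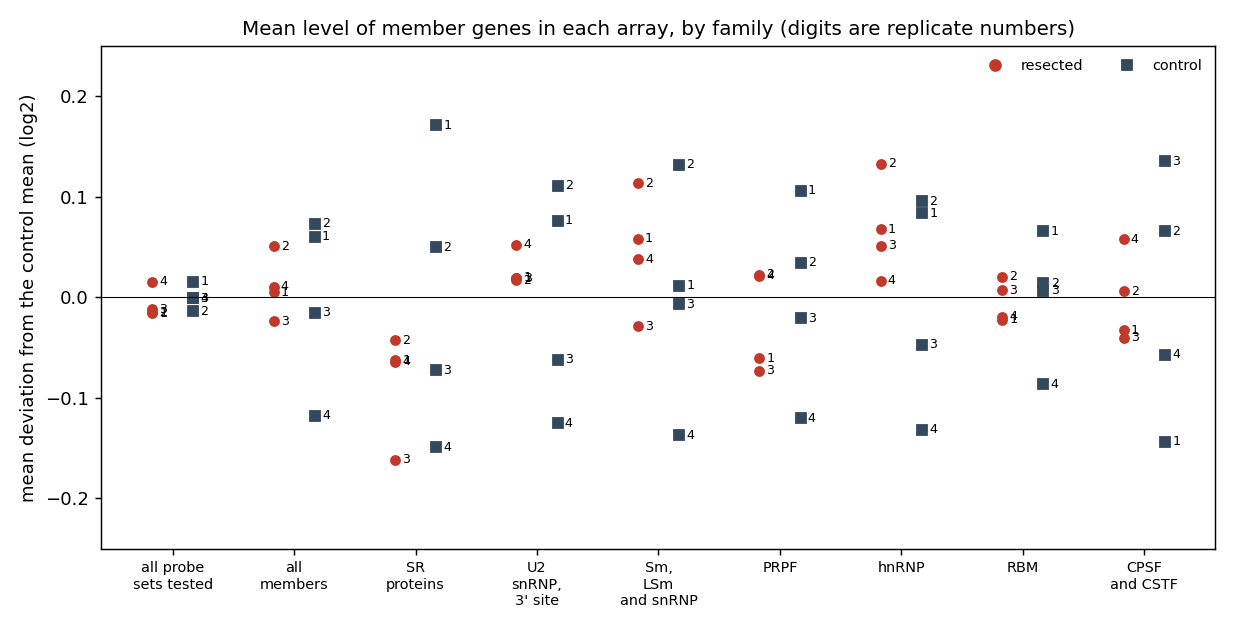
Mean deviation of each array from the mean of the control arrays (y axis, log2), over all probe sets tested, all member genes and the genes of each family (x axis), with resected arrays as red circles left of the control arrays as dark squares and replicate numbers as digits. Control replicates 1 and 4 lie far apart for the SR proteins (0.17 and -0.15), and the resected arrays fall between the control extremes in most families.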

How the data were processed

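The deposited table holds log2 expression values; affy and RMA are the tools named, per the submitters' processing notes, and their versions and settings are not given in the sources used here. RMA in general includes quantile normalization, which sets the arrays' distributions nearly equal. All 8 columns were matched to samples by accession. Of 15617 probe sets 115 are the array maker's controls (AFFX) and were not tested, which left 15502. RMA values carry no detection call and no counts, so the number of arrays limits precision. Gene symbols came from the platform annotation, which gives a single symbol for 10795 of the tested probe sets; bringing them up to date through the gene table of GRCz12tu changed 0 member symbols. The genome build of the array is not given, so no coordinates are printed, and sequences of the members were not used here.

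The test was two-sided, from limma 3.58.1 (lmFit, then eBayes) under R 4.3.3 and with no replicate term. Ratios within the pairs named a and b had exact permutation tests (scipy 1.17.1). Tested on simulated arrays with 200 changed probe sets, limma recovered 46.0% of log2 changes of 0.5 and 90.2% of changes of 1, and 5.2% of its calls were false (10 draws). The simulated noise was independent between probe sets and all 200 changes were increases. In the real arrays 1062 probe sets were called, in both directions, so recovery there may differ. No filter on low values was applied in the main comparison; 131 of 137 member probe sets exceed the 20th percentile of means. Members, families and lists were chosen with earlier results of these data known. Named in full are called genes and, in a family with fewer than 2 of them, the 2 with the smallest p; any member may be named. From the list of other RNA processing genes, those called are named (up to 8 each way). Alternatives were a replicate block, leaving out each array, further normalization, a filter on dim probe sets, other variance priors, array weights, averaging the probe sets of each gene (added after seeing the data), updated symbols and leaving out probe sets ending in _x_at. Replicate numbers were not shown to pair the arrays: the deviations of same-numbered arrays correlated at 0.12, 0.14, -0.01 and -0.16. For replicates 1 and 2 the same-numbered arrays were each other's best match, and for replicates 3 and 4 they were not. These correlations cannot settle whether the arrays were paired.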

Additional observations from a re-analysis of the deposited data

Results flagged for a closer look

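Of 94 groups of 4 arrays checked, 4 held an array far from the others of its group, about the number that chance gives. For sf3a2, control replicate 1 was at 8.69, above the next control array at 8.57; this array adds to the difference, and without it sf3a2 was still called. For lsm12a, control replicate 4 was at 7.38, below the next at 7.73. For rbm25b, resected replicate 4 was at 6.81, below the next at 7.01. For rbm39a, resected replicate 4 was at 9.31, above the next at 9.05. Neither lsm12a, rbm25b nor rbm39a was called.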

How the results depend on the processing

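Of the 6 called member probe sets, those of prpf31 and sf3a2 kept their calls without each array in turn, and all but that of lsm12b kept theirs in the 7 other settings that refit all arrays. Leaving out 1 array gave 0 to 9 member probe sets called higher and 2 to 4 lower, and 0 to 8 member genes higher. Among the other RNA processing genes it gave 3 to 11 higher and 0 to 3 lower. Each of these highest counts of increases was reached without control replicate 2. For fits without another array the shares over all probe sets are not given here, so the ranges are not particular to these genes. The replicate block gave 4 member probe sets higher and 2 lower (rbm47 added, lsm12b lost; 5 shared), and 3 higher and 0 lower of the other genes; it ended the calls of lsm12b, pnn, rbfox1l and ppil1 and no other call of a named gene. Further quantile normalization gave 5 lower of the other genes, the filter on dim probe sets 2 and the robust prior 2. Averaging the probe sets of each gene, an alternative chosen after seeing the data, gave 1 member gene higher. Updated symbols and leaving out _x_at probe sets left the member probe set counts at 3 and 3. The median change over member probe sets stayed between -0.05 and 0.00 without 1 array. The call of ppil1 also ended with further quantile normalization, median centring, a trend prior and array weights (adjusted p = 0.0532 to 0.0671).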
